A study of Homo sapiens with 18 samples.

Results

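The 10 genes described here encode the enzymes and partners that write 2 repressive chromatin marks, and they were fixed as a list of names out of 38716 gene symbols counted in the series. EZH2, EZH1, EED, SUZ12 and RBBP7 belong to Polycomb repressive complex 2 (PRC2). DNMT1, UHRF1, HELLS, DNMT3A and DNMT3B set or copy DNA methylation. All 10 were listed in all 18 libraries, and all 10 passed the filter on low counts in mRNA-seq. In Ribo-seq, which sequences the mRNA pieces that ribosomes protect from nuclease (footprints), only RBBP7, DNMT1, UHRF1 and HELLS passed that filter.

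The cells were IMR90, a strain of human fetal lung fibroblasts, grown as young (low passage, proliferating), old (high passage, replicatively senescent) or ICM (low passage, given inflachromene, a compound known to bind HMGB1 and HMGB2). Each condition had 3 lysates, and each lysate gave 1 mRNA-seq and 1 Ribo-seq library. The labels gave neither the dose nor the duration of the treatment, and no vehicle-treated group is named in them. The study's methods describe 3 independently grown replicates per condition, so p-values measure the spread between cultures of IMR90. The study also describes its replicative senescence Ribo-seq data as made earlier than the ICM data, and no label gives a batch or date. A run and a condition can therefore not be told apart. This limit covers the mRNA-seq libraries too, since they came from the same lysates.

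mRNA-seq libraries held 7902427 to 14144455 reads in coding genes, and Ribo-seq libraries 46239 to 1718521 reads in coding sequences (CDS). The shallowest Ribo-seq library was ICM replicate 3. In young replicate 1 and old replicate 2, only 34.4% and 15.0% of the footprint reads lay in the CDS. The fibroblast label was met by its markers in every mRNA-seq library, though at lower levels in ICM. The 8 fibroblast markers summed to 27034 to 32517 CPM in young and old and to 12152 to 12632 CPM in ICM. CPM are reads scaled to a common library size, with TMM factors. The epithelial markers EPCAM and CDH1, the endothelial PECAM1 and CDH5 and the immune PTPRC and LYZ each had group means below 1 CPM. VWF, an endothelial marker, reached 3.38 CPM in ICM, and CD68, a lysosomal protein also made outside immune cells, was at 20.6 CPM in young, 33.2 CPM in old and 58.6 CPM in ICM. These are bulk samples, in which fewer cells making a transcript and less of it per cell cannot be told apart.

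PRC2 methylates lysine 27 of histone H3 and thereby marks silent developmental genes. EZH2 and EZH1 are alternative catalytic subunits, EZH2 typical of dividing and EZH1 of resting cells, and EED and SUZ12 are needed for the activity of both. DNA methylation is copied after each round of replication by DNMT1, which UHRF1 brings to hemimethylated CpG sites, while HELLS (LSH) is a chromatin remodeller that opens nucleosomal DNA to methylation. DNMT3A and DNMT3B place methyl groups on unmethylated sites. In fibroblasts, PRC2 is known for silencing the CDKN2A locus in young cells, and lower DNMT1 is a known trait of senescence.

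The promoters of the 10 genes are shown first. RefSeq promoter windows (build GRCh38.p14, 250 bases before to 50 after each annotated start) were found for all 10 genes, 19 windows in all. Both strands were searched for 4 octamers of the E2F consensus (TTTCCCGC, TTTCGCGC, TTTGGCGC and TTTGCCGC), an element of some cell cycle promoters. At least 1 octamer was found in a window of 6 of the 10 genes, namely EZH2, EZH1, SUZ12, DNMT1, UHRF1 and HELLS, whereas 3.99% of all 27305 gene symbols and 3.31% of all 35116 windows held one. These shares cover all symbols with a window, whether expressed here or not, and the number of windows per gene was not matched. Of the 16 proliferation genes used below, 14 had a window and 9 of these an octamer. None was found for EED, RBBP7, DNMT3A or DNMT3B. CCAAT, read on both strands, occurred in 34.6% of all windows and was present 4 times in one EZH2 window. TTTGAA, the CHR element of cell cycle promoters, occurred in 16.4% of all windows, and among the 10 genes in those of SUZ12 and DNMT3A. A match is a description of letters, not a measured site. The stretches below run from 130 bases before the start to 20 bases after it, 5′ to 3′ on the gene's strand. Capitals mark E2F octamers (8 letters) and CCAAT or its complement ATTGG (5 letters).
EZH2 (chr7:148884272-148884421, minus strand): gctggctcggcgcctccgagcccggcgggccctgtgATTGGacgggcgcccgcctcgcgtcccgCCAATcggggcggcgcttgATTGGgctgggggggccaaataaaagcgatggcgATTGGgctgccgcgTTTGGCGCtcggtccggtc
EZH1 (chr17:42745021-42745170, minus strand): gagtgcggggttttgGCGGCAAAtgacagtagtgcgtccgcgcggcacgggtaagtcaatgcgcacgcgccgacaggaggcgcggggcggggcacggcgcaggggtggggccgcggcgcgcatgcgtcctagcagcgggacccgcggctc
EED (chr11:86244623-86244772, plus strand): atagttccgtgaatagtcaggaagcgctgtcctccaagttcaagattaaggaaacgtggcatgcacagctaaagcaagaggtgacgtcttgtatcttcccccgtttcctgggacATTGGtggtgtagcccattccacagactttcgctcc
DNMT1 (chr19:10194934-10195083, minus strand): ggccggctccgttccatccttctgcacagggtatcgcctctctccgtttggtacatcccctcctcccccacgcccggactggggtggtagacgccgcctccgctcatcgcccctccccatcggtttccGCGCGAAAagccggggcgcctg
UHRF1 (chr19:4909371-4909520, plus strand): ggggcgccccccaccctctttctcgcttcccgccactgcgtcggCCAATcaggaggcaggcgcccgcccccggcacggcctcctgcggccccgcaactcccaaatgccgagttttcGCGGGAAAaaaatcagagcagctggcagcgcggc
HELLS (chr10:94545658-94545807, plus strand): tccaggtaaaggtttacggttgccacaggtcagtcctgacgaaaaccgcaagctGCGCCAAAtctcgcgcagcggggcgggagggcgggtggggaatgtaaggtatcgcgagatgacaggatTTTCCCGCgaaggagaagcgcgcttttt

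The EZH2 octamer began 2 bases into the transcript, and the DNMT1 octamer spanned the start. HELLS held octamers starting 76 and 8 bases before the start. Both EZH1, which was higher in old and ICM, and EZH2, which was lower, held an octamer. Regulation of these genes by E2F was not tested. EED, RBBP7 and DNMT3B each held a CCAAT box but no octamer, and DNMT3A held neither. RBBP7, DNMT3B and DNMT3A mRNA fell against young, whereas EED mRNA did not pass the test in any comparison.

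In mRNA-seq, 8 of the 10 genes fell and 1 rose in old against young, and the same split was found in ICM against young. The share of all 13173 tested genes that fell was 33.7% in old against young and 36.1% in ICM against young, and 32.4% and 34.9% rose (edgeR quasi-likelihood test, adjusted p under 0.05). The median log2 difference of the 10 genes was -0.94 in old and -1.40 in ICM, against -0.015 and -0.0070 over all genes tested. The 10 genes and the gene lists were chosen with earlier results of these data known. Their counts and medians, here and below, are therefore a description. These comparisons share the young libraries. ICM was also compared directly with old, where 6 genes were lower in ICM and DNMT3A was higher, with 32.6% and 30.7% of all genes in these directions. The proliferation list fell with them. All 16 of its genes, among them MKI67, TOP2A and the MCM helicase subunits, were lower in both comparisons, and the list summed to 1343 to 1412 CPM in young, 490 to 528 CPM in old and 148 to 159 CPM in ICM. The part of cycling cells in these differences was not tested.

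**Figure D1:**
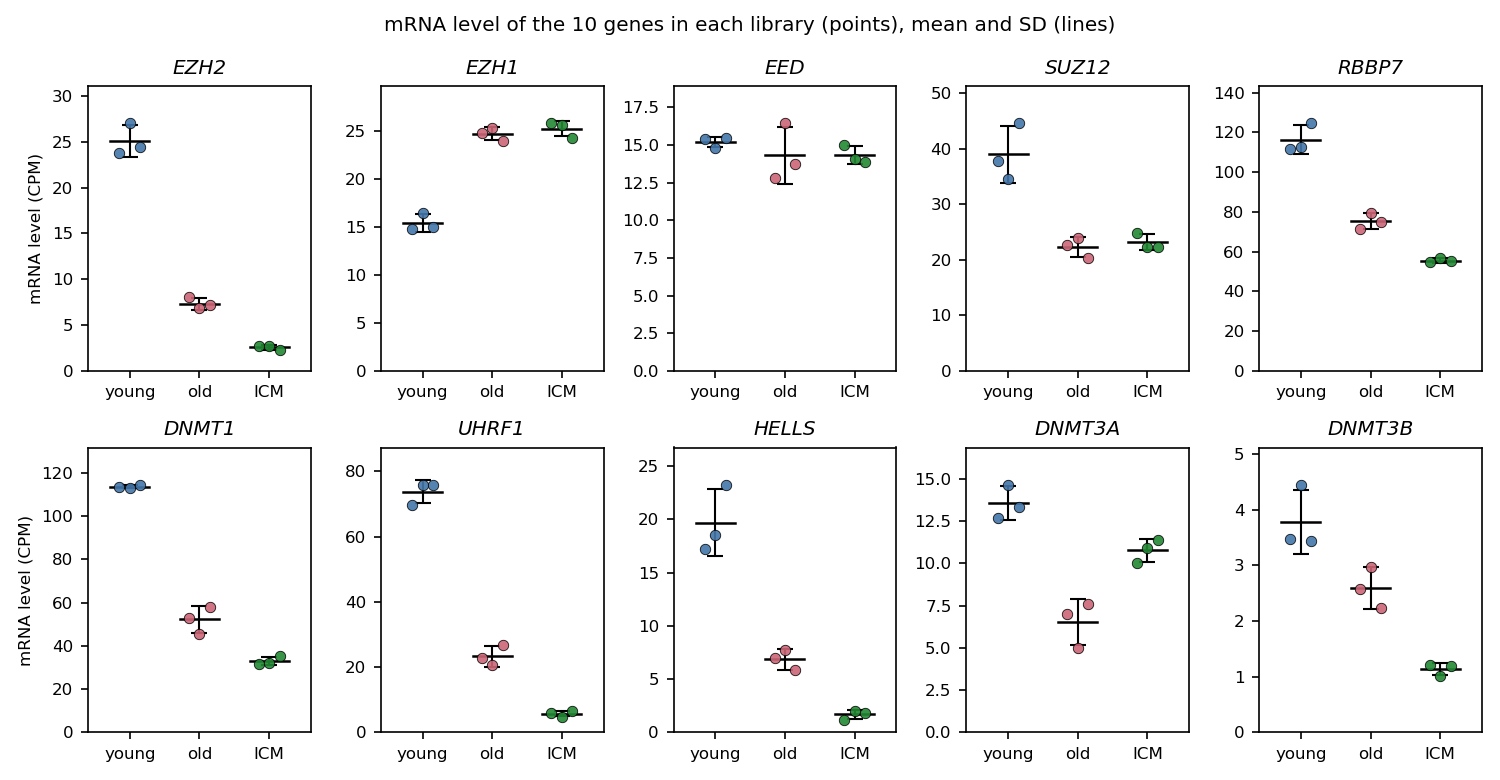
mRNA level (y axis, TMM-scaled CPM over 5′ UTR, CDS and 3′ UTR reads) of each gene in young, old and ICM libraries; points are libraries, the horizontal line is the mean and the bar its SD (n = 3). The levels of 7 genes, EZH2, RBBP7, DNMT1, UHRF1, HELLS, DNMT3B and DNMT3A, were called different between old and ICM. Over all 13173 tested genes, 32.6% were called lower and 30.7% higher in ICM than in old. EZH1, EED and SUZ12 had overlapping old and ICM libraries.

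EZH2 (chr7:148504349-148581413 on GRCh37, as are the gene positions below, from the GENCODE annotation), the PRC2 methyltransferase of dividing cells, had the largest fall of the complex. Its mRNA was at 23.8, 27.03 and 24.4 CPM in the young libraries, at 8.06, 6.82 and 7.14 CPM in old, and at 2.70, 2.68 and 2.29 CPM in ICM. No library of one condition overlapped another. Against young, EZH2 fell by 1.79 on the log2 scale in old (SE 0.11, adjusted p = 2.66e-12) and fell by 3.29 in ICM (SE 0.13, adjusted p = 6.70e-16). It was lower in ICM than in old, with a log2 difference of -1.50 (SE 0.16, adjusted p = 3.06e-08).

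EZH1 (chr17:40852293-40897067) moved the other way. Its mRNA was at 14.8, 16.5 and 15.0 CPM in young, 24.8, 25.4 and 24.01 CPM in old, and 25.8, 25.6 and 24.3 CPM in ICM. It rose by 0.68 in old (log2, SE 0.089, adjusted p = 6.80e-07) and by 0.71 in ICM (SE 0.088, adjusted p = 2.37e-07), and all 6 old and ICM libraries were above all young libraries. Between ICM and old the log2 difference was 0.030 with a 95% interval from -0.14 to 0.20, and the old and ICM libraries overlapped.

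Per kilobase of coding length, which allows the genes to be compared, the catalytic subunits changed places. EZH2 CDS reads were at 10.8 ± 0.916 CPM per kb in young (SD, n = 3), 3.16 ± 0.332 in old and 1.09 ± 0.0946 in ICM. EZH1 was at 3.20 ± 0.241, 5.13 ± 0.200 and 4.95 ± 0.424 CPM per kb. The ratio of EZH2 to EZH1 was therefore 3.37 ± 0.260 in young, 0.615 ± 0.0522 in old and 0.219 ± 0.00145 in ICM. On the log2 scale the ratio differed by -2.46 between old and young, by -3.94 between ICM and young and by -1.48 between ICM and old, with no overlap of libraries in any pair. The exact two-sided permutation test gave p = 0.1 for each, the smallest p that this test can give with 3 against 3 libraries, and 0.1 also after adjustment over the 3 comparisons, so this test cannot reach 0.05 here.

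**Figure D2:**
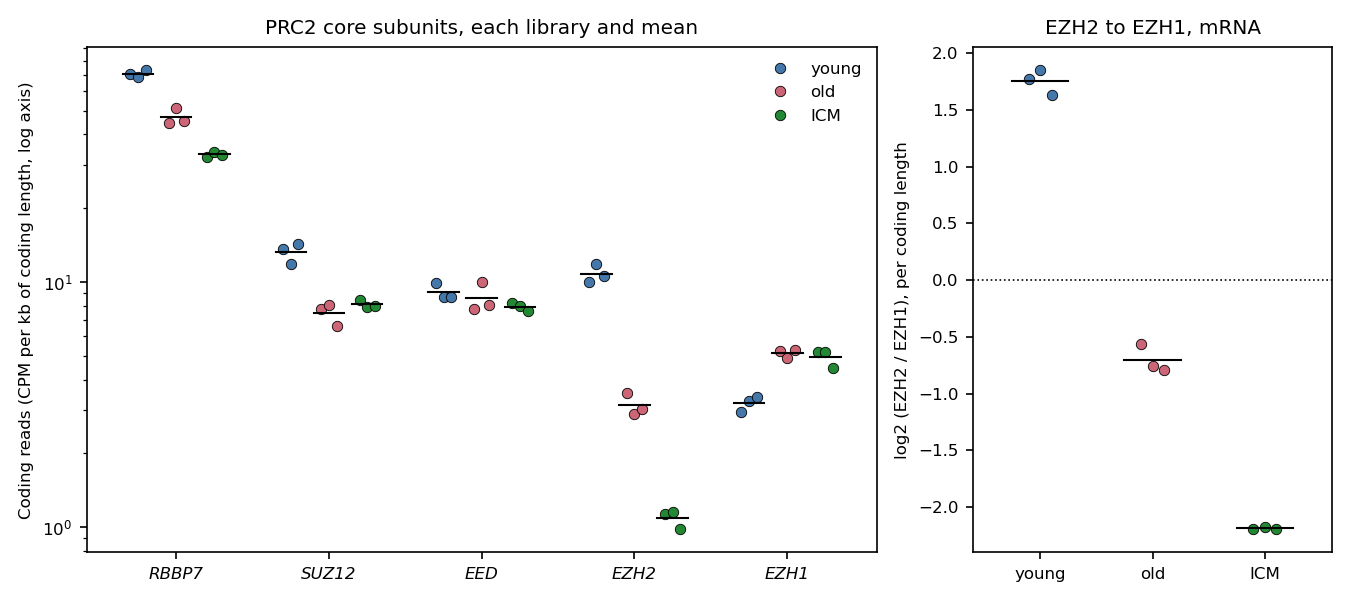
Left, CDS reads per kb of coding length (CPM per kb, log axis) of the 5 PRC2 genes in each library (points) with the mean (line); right, log2 ratio of EZH2 to EZH1 per coding length in each library with the mean, the dotted line marking equal levels. EZH2 lies above EZH1 in all 3 young libraries and below it in all 6 old and ICM libraries, and the EED points of ICM, at 7.63 to 8.18 CPM per kb, lie just below those of young, at 8.70 to 9.94.

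EED and SUZ12 differed from each other. EED (chr11:85912254-85989855), the subunit that reads trimethylated H3K27, was at 15.4, 14.8 and 15.4 CPM in young, 12.8, 16.5 and 13.7 CPM in old, and 15.0, 14.1 and 13.9 CPM in ICM, and the libraries of all conditions overlapped. Its log2 differences were -0.070 in old (95% interval -0.29 to 0.15) and -0.083 in ICM (-0.30 to 0.14), so a fall as large as that of EZH2 lies outside these intervals. Counted over CDS reads alone, all ICM libraries of EED lay below all young ones, and the test was not passed in any of 16 alternative fits, that of CDS reads included. SUZ12 (chr17:30264026-30328057), the scaffold on which the complex is built, was at 37.8, 34.5 and 44.6 CPM in young and at 20.4 to 24.9 CPM in the 6 old and ICM libraries. SUZ12 fell by 0.80 in old (log2, SE 0.097, adjusted p = 2.07e-07) and fell by 0.74 in ICM (SE 0.096, adjusted p = 3.78e-07), and old and ICM did not pass the test against each other (log2 0.056, 95% interval -0.15 to 0.27). The pseudogene SUZ12P1 was listed with 61.0 to 89.3 reads per mRNA-seq library beside 211 to 468 for SUZ12, and fractional counts show that some reads were divided between features, so SUZ12 is less certain as a single gene.

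RBBP7 (chrX:16857406-16888485), a histone chaperone that PRC2 shares with other complexes, was the most abundant of the 10 per coding length in each condition. It was at 111.7 to 124.7 CPM in young, 71.6 to 79.5 CPM in old and 54.7 to 56.8 CPM in ICM, with no overlap. It fell by 0.63 in old (log2, SE 0.066, adjusted p = 2.25e-08) and fell by 1.07 in ICM (SE 0.067, adjusted p = 2.45e-12). The order of the PRC2 core by coding-length level changed with this. In young it was RBBP7, SUZ12, EZH2, EED and EZH1, with overlapping SUZ12 and EZH2 libraries. In ICM it was RBBP7, SUZ12, EED, EZH1 and EZH2, with overlapping SUZ12 and EED libraries.

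The maintenance methylation genes fell steeply. UHRF1 (chr19:4903092-4962165) was at 69.6, 75.9 and 75.8 CPM in young, 22.7, 20.6 and 26.9 CPM in old, and 5.93, 4.81 and 6.44 CPM in ICM. It fell by 1.67 in old (log2, SE 0.090, adjusted p = 3.94e-13) and fell by 3.68 in ICM (SE 0.11, adjusted p = 5.39e-18), the largest mRNA fall among the 10 genes in ICM. HELLS (chr10:96305086-96373662) was at 17.2, 18.6 and 23.3 CPM in young, 6.99, 7.71 and 5.84 CPM in old, and 1.202, 2.04 and 1.87 CPM in ICM. It fell by 1.52 in old (SE 0.14, adjusted p = 2.44e-09) and fell by 3.56 in ICM (SE 0.18, adjusted p = 5.84e-14). For both genes each condition lay apart from the others, and ICM was lower than old by 2.01 for UHRF1 (log2 -2.01, adjusted p = 3.08e-12) and by 2.04 for HELLS (log2 -2.04, adjusted p = 3.10e-08).

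DNMT1 (chr19:10244018-10341962), the maintenance enzyme itself, fell less than the factor that recruits it. Its mRNA was at 113.3 to 114.6 CPM in young, 45.7 to 58.2 CPM in old and 31.8 to 35.4 CPM in ICM, again without overlap. It fell by 1.13 in old (log2, SE 0.076, adjusted p = 1.68e-11) and fell by 1.78 in ICM (SE 0.079, adjusted p = 5.63e-15), and ICM was below old by a log2 difference of -0.66 (SE 0.083, adjusted p = 4.12e-07). Per coding length, DNMT1 was at 22.6 ± 0.1501 CPM per kb in young and UHRF1 at 21.1 ± 1.09. In ICM these were 6.56 ± 0.353 and 1.57 ± 0.351 CPM per kb.

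Of the de novo enzymes, DNMT3A was lowest in old and DNMT3B lowest in ICM. DNMT3A (chr2:25450724-25565459) was at 12.7, 14.6 and 13.3 CPM in young, 6.99, 4.97 and 7.60 CPM in old, and 9.99, 10.9 and 11.4 CPM in ICM. It fell by 1.09 in old (log2, SE 0.14, adjusted p = 4.79e-07) and fell by 0.34 in ICM (SE 0.13, adjusted p = 0.0182), and it was the only one of the 10 genes that was higher in ICM than in old (log2 0.74, SE 0.14, adjusted p = 8.99e-05). The ICM fall is the weakest called one, and it was lost in 4 of 16 alternative fits, with adjusted p up to 0.220. DNMT3B (chr20:31350191-31397165) was lowly expressed, at 3.43 to 4.45 CPM in young, 2.22 to 2.97 CPM in old and 1.02 to 1.202 CPM in ICM. It fell by 0.55 in old (SE 0.19, adjusted p = 0.0177), a call lost in 4 of 15 alternative fits, and fell by 1.73 in ICM (SE 0.23, adjusted p = 5.97e-07).

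**Figure D3:**
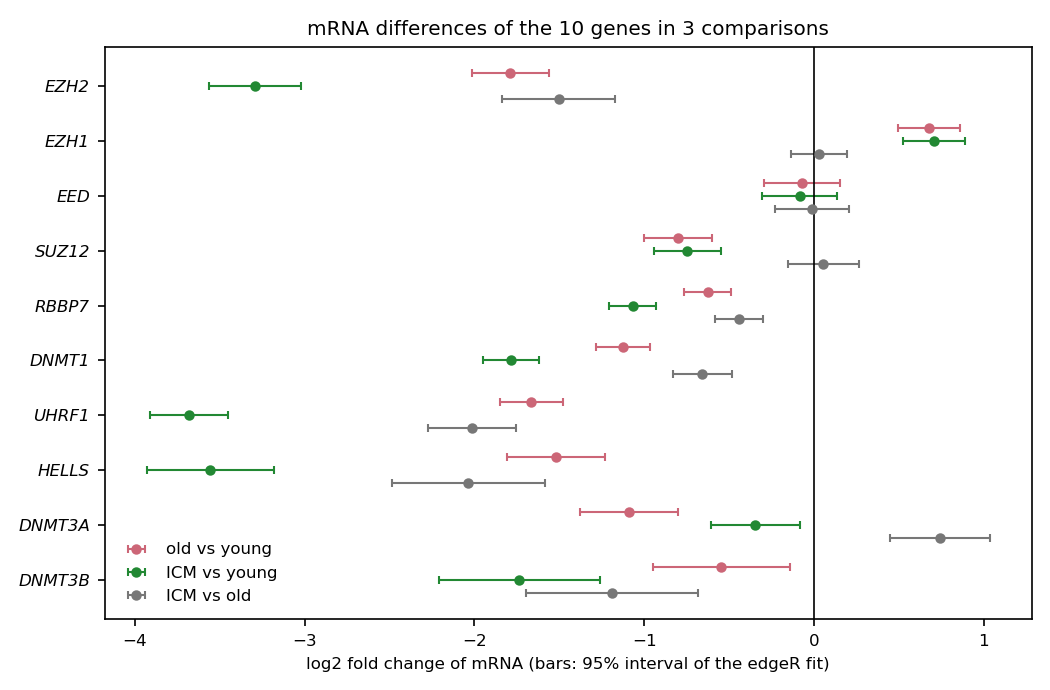
Log2 fold changes of mRNA for old against young, ICM against young and ICM against old (points) with 95% intervals of the edgeR fit (bars). EZH1 lies to the right of 0 against young, EED spans 0 in all 3 comparisons, and DNMT3A is the only gene to the right of 0 for ICM against old with an interval that leaves it out.

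The genes with mRNA patterns most like 4 of the members were looked up among 10808 genes of at least 5 CPM, by Pearson's r of log2 CPM over the 9 mRNA-seq libraries, which fall into 3 conditions. For EZH2 these were NSMCE4A (r = 0.997), WAPL (0.996) and PARP1 (0.996). For EZH1 they were NIPAL3 (0.994), IGIP (0.994) and CSGALNACT1 (0.993), and for DNMT3A TTC28 (0.992), ZNF503 (0.984) and ZMIZ1 (0.980). For DNMT1 they were TRIM28 (0.997), the corepressor that guides H3K9 methylation, and the near-identical pair EIF3C (0.997) and EIF3CL (0.996). These r values describe 3 levels more than 9 independent points.

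Reads over the 3′ UTR, which could show a change in transcript form, took 13.5%, 13.5% and 13.8% of the summed reads of the 10 genes in young, 15.1%, 16.7% and 14.2% in old, and 16.1%, 15.3% and 14.5% in ICM. The difference from young was 1.70 percentage points in old and 1.66 in ICM (exact two-sided permutation p = 0.1 for each, the smallest possible, adjusted p = 0.15), and -0.031 between ICM and old (exact permutation p = 1). The sum follows the mix of genes, since the share differs widely among them. EZH1 had 48.5% ± 3.97 of its reads in the 3′ UTR in young and 51.3% ± 1.195 in ICM (SD, n = 3), while EZH2 had 1.86% ± 1.10 and 3.00% ± 2.80.

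Footprints were few, and depth sets what they can show. Over the 3 libraries of each condition, the CDS reads came to 2458003 in young, 2311313 in old and 350260 in ICM. EZH2 had 1, 20 and 43 footprint reads in the young libraries, 8, 1 and 4 in old, and none in ICM. A count of 0 allows up to 3 reads, or 8.57 CPM over the pooled ICM libraries, so that EZH2 footprints were at least 3.04-fold lower in ICM than in young (26.0 CPM). This bound pools libraries of unequal depth, covers counting error in ICM only and takes the young level as exact. ICM and old could not be ordered, since old (5.62 CPM) lay below the limit of 8.57 CPM. EZH1 had 15 reads in young, 32 in old and 3 in ICM. Summed over libraries, EZH2 to EZH1 footprints were 64 to 15 in young, 13 to 32 in old and 0 to 3 in ICM.

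Among the 4 genes that could be tested in footprints, 4 fell in old against young and 3 in ICM against young, beside 17% and 12.9% of 4643 tested genes that fell and 19.3% and 13.7% that rose. HELLS passed the filter through the young libraries, where it is high, so its fall and the counts that include it are a description. In ICM against old 2 of the 4 were lower, beside 7.62% lower and 5.79% higher over all genes. UHRF1 was at 99.0, 118.3 and 145.7 CPM in young (5, 74 and 229 reads), 51.9, 80.5 and 67.7 CPM in old, and 4.93, 0 and 22.8 CPM in ICM (1, 0 and 1 reads). It fell by 1.18 in old (log2, SE 0.26, adjusted p = 0.000458). With 308 reads in young and 2 in ICM, the pooled ratio of ICM to young was 0.0456, with an exact 95% interval from 0.00549 to 0.166 that covers counting error only. The UHRF1 call in ICM against young held in all 15 alternative fits that gave one, and that in old against young in 11 of 15.

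DNMT1 footprints were at 277.3, 155.0 and 148.3 CPM in young, 81.1, 60.4 and 86.2 CPM in old, and 9.85, 54.6 and 22.8 CPM in ICM (2, 4 and 1 reads). No condition overlapped another. DNMT1 fell by 0.96 in old (log2, SE 0.24, adjusted p = 0.00244) and fell by 2.83 in ICM (SE 0.50, adjusted p = 5.03e-05). The old call held in 13 of 16 alternative fits, and was lost with DESeq2, with the replicate block and without old replicate 1. The ICM call held in all 16, but its size rests on 7 reads and ran from log2 -1.99 without ICM replicate 1 to -3.72 without ICM replicate 2. The pooled ratio of ICM to young was 0.143 (95% interval 0.0570 to 0.297).

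RBBP7, with 531 reads in young, 265 in old and 41 in ICM, fell by 0.67 in old (log2, SE 0.21, adjusted p = 0.0111) and fell by 0.89 in ICM (SE 0.30, adjusted p = 0.0233). The old libraries overlapped young, and these calls held in 10 and 12 of 16 alternative fits. HELLS footprints were at 79.2, 97.5 and 72.5 CPM in young, 19.9, 20.1 and 20.5 CPM in old, and 24.6, 13.6 and 114.2 CPM in ICM (5, 1 and 5 reads). All old libraries lay below all young ones, with a fitted log2 difference of -2.02 (SE 0.36). In ICM the log2 difference was -1.23 (SE 0.53, adjusted p = 0.0818), which did not pass, and ICM replicate 3, with 5 reads, lay above every young library. Without that library the log2 difference was -1.99 and passed (edgeR adjusted p = 0.00726). As HELLS passed the filter through the young libraries, these HELLS values are a description.

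The 6 genes below the filter are given by their reads. SUZ12 had 99 reads in young, 35 in old and 5 in ICM, and the pooled ratio of old to young was 0.376 (exact 95% interval 0.248 to 0.558). EED had 73, 33 and 8 reads, with a ratio of old to young of 0.481 (0.309 to 0.735) and of ICM to young of 0.769 (0.320 to 1.60). DNMT3A had 35, 18 and 3 reads and DNMT3B 6, 3 and 1, too few to order ICM against either other condition.

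**Figure D4:**
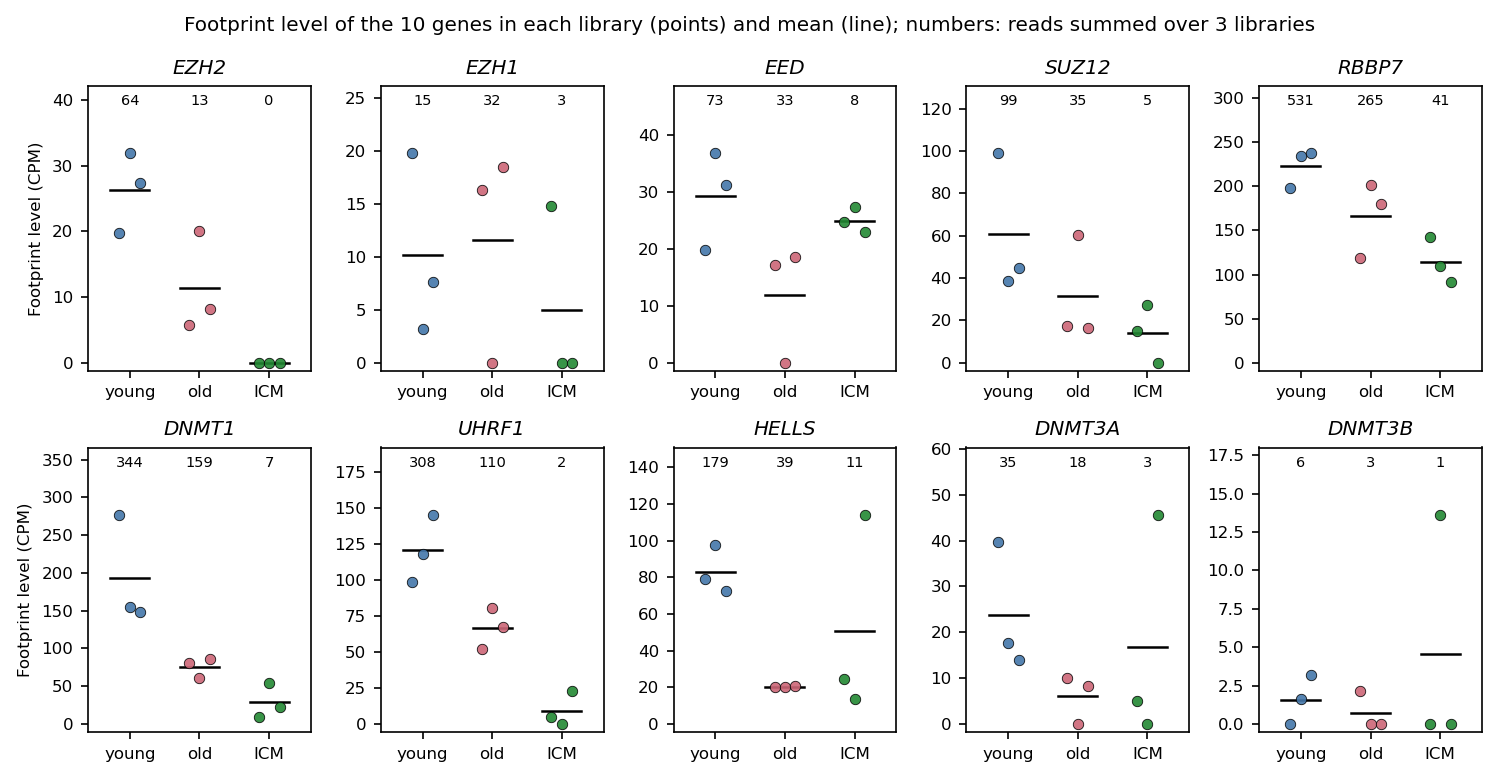
Footprint level (y axis, TMM-scaled CPM over CDS reads) of each gene in young, old and ICM Ribo-seq libraries; points are libraries, lines the means (n = 3) and numbers the reads summed over the 3 libraries. EZH2 is at 0 in all 3 ICM libraries, and the high HELLS point of ICM is 1 library with 5 reads.

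Translational efficiency, the footprint level relative to the mRNA level, was tested for the same 4 genes among 4618. In ICM against young 2.38% of all genes were called in either direction, in old against young 1.43% and in ICM against old 0.346%. Of the 4, only HELLS was called, as higher in ICM than in young (log2 2.58, SE 0.73, adjusted p = 0.0487, 95% interval 1.10 to 4.06). The call was held in 3 of 16 alternative fits. As HELLS passed the footprint filter through the young libraries, its values here are a description. The summed footprints of the proliferation list were also higher in that ICM replicate 3, at 1119 CPM against 404 and 573 CPM in the other ICM libraries, although its mRNA sum of 148 CPM lay below their 159 and 155 CPM, and the part of this library in the HELLS value was not tested beyond leaving it out (log2 1.80, not called). In old against young the 4 differences ran from -0.39 for HELLS (95% interval -1.27 to 0.49) to 0.50 for UHRF1 (-0.11 to 1.11). None of the 4 genes was called in old against young or in ICM against old by edgeR. No member had an unadjusted p under 0.05 in old against young, and 1 did in ICM against old (HELLS, log2 2.97, adjusted p = 0.0945).

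Beyond the core genes, PRC2 accessory subunits divided within one family of paralogs. Of 9 listed genes 8 were tested, and 1 rose and 4 fell in old, 1 rose and 5 fell in ICM, with median log2 differences of -0.41 and -0.31. Over all genes, 32.4% rose and 33.7% fell in old, and 34.9% rose and 36.1% fell in ICM, and the counts of this and the next lists stand beside these shares. The Polycomb-like proteins, which bring PRC2 to CpG-rich DNA, went in opposite directions. PHF19 went from 65.9 CPM in young to 33.8 in old and 25.2 in ICM (log2 -0.96 and -1.38, adjusted p = 3.17e-10 and 4.91e-13). MTF2 went from 17.2 to 10.6 and 8.55 CPM (log2 -0.70 and -1.01). PHF1 went from 36.4 to 48.7 and 79.5 CPM (log2 0.43 and 1.13, adjusted p = 2.78e-05 and 2.33e-12). JARID2, which also guides the complex, fell by 0.86 in old and fell by 0.50 in ICM, and AEBP2 did not pass the test.

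PRC1, the complex that ubiquitinates histone H2A and whose CBX subunits bind the PRC2 mark, was mixed too. All 23 listed genes were tested, of which 3 rose and 9 fell in old and 3 rose and 13 fell in ICM (medians -0.072 and -0.33), beside 33.7% and 36.1% of all genes that fell. CBX7 rose from 4.94 CPM in young to 11.4 in old and 15.1 in ICM (log2 1.17 and 1.59). CBX8 rose in ICM (log2 0.91) and was at log2 0.30 in old, where it did not pass. CBX2, singled out after its values were seen, went from 10.5 CPM to 1.33 and 1.10 CPM (log2 -2.96 and -3.23, adjusted p = 1.77e-12 and 2.68e-13). PCGF6 fell by 1.318 in ICM and fell by 0.36 in old, PHC2 fell by 0.81 in ICM and was at log2 0.041 in old (ICM against old, log2 -0.86, adjusted p = 4.81e-10), and PCGF5 rose by 0.43 in old. KDM2B, SCMH1 and PHC1 fell in both comparisons, by between 0.43 and 0.73 on the log2 scale. Of the ubiquitin ligases, RING1 fell in old (log2 -0.26) and RNF2 in both (log2 -0.30 and -0.39).

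Genes that remove the marks were counted next, again beside 33.7% of all genes that fell in old and 36.1% in ICM. Of 6 genes for H3K27 demethylases and the H2A deubiquitinase, 5 fell in old and 4 in ICM and none rose, ASXL1 and ASXL2 in both (ASXL1 log2 -0.33 and -0.54). KDM6A fell in old (log2 -0.36), and KDM6B fell in both (log2 -0.26 and -0.28). Of 6 DNA demethylation genes, 5 fell in old, and in ICM 4 fell and 2 rose. TET3 went from 18.04 CPM in young to 8.79 in old and 5.09 in ICM (log2 -1.04 and -1.83), and TET2 from 24.3 to 13.9 and 11.0 CPM (log2 -0.82 and -1.14). The 2 that rose in ICM were IDH1 (log2 1.64) and IDH2 (log2 0.55), enzymes that make the 2-oxoglutarate TET enzymes use but also NADPH, and both fell in old, by 0.25 and 0.46. TDG fell in ICM (log2 -0.69).

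The readers and partners of methylated DNA were led by a HELLS partner. CDCA7, which brings HELLS to nucleosomes, went from 19.2 CPM in young to 3.27 in old and 0.518 in ICM (log2 -2.57 and -5.15, adjusted p = 2.40e-13 and 1.99e-16), more than HELLS itself. Of 13 genes 12 were tested, and 1 rose and 6 fell in old, 3 rose and 6 fell in ICM (medians -0.19 and -0.20). ZBTB4, a methyl-CpG binding repressor, rose in both (log2 0.80 and 0.67), and MBD2 rose in ICM (log2 0.40). USP7, which stabilises UHRF1 and DNMT1, fell by 0.29 and 0.46, and ZBTB24, which activates CDCA7, by 0.60 and 0.40. ZBTB38 fell in ICM by 0.64 and ZBTB33 in old by 0.48. In the H3K9 methylation list, 8 of 10 genes fell in old and 9 in ICM and none rose, with SUV39H1 at log2 -0.77 and -1.63, SUV39H2 at -0.87 and -0.88, EHMT2 at -0.74 and -0.41 and TRIM28 at -0.67 and -0.98.

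**Figure D5:**
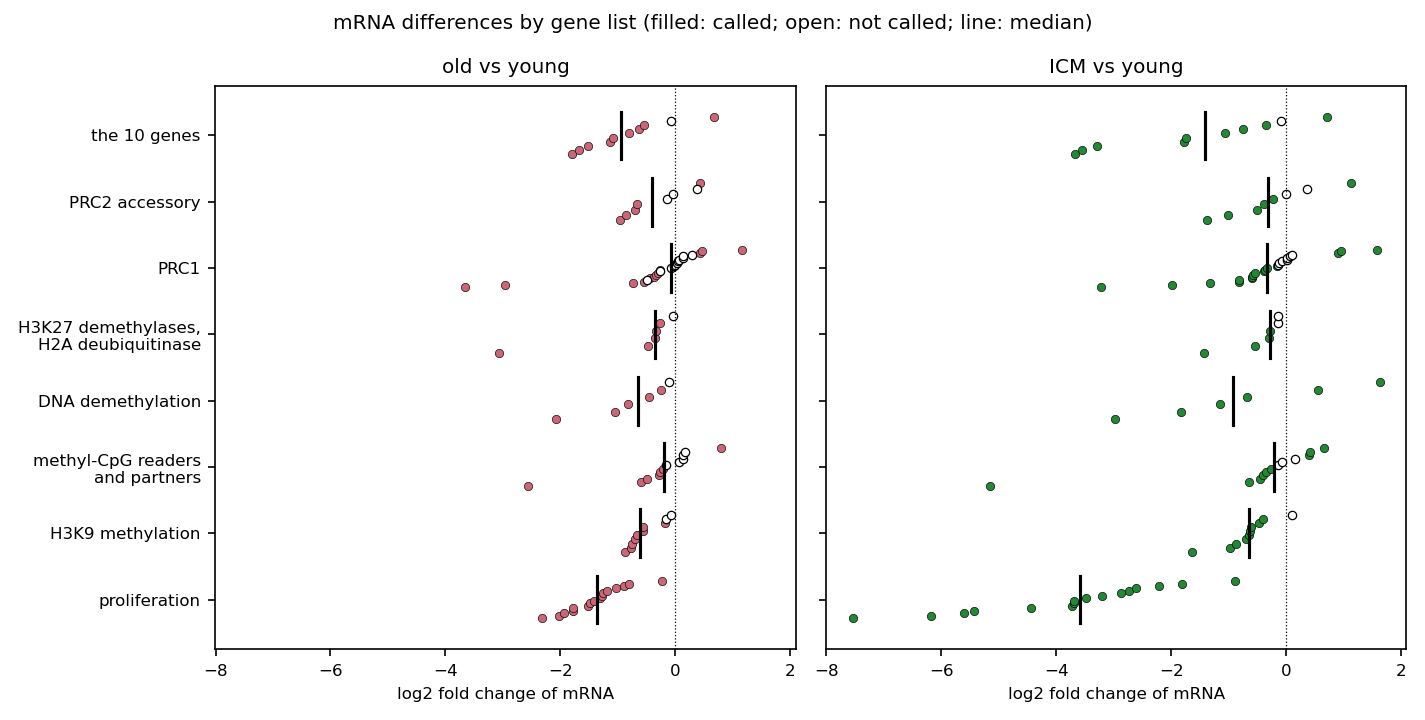
Log2 fold changes of mRNA for old against young (left) and ICM against young (right), 1 point per tested gene in each list, filled where called at an adjusted p under 0.05 and open where not, with the list median as a vertical line. The proliferation list has the lowest medians, -1.36 in old and -3.58 in ICM, and PRC1 and PRC2 accessory genes lie on both sides of 0.

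Known targets of these marks were then read. In the CDKN2A locus, CDKN2A rose by 0.60 in old and fell by 0.25 in ICM (49.6 CPM in young, 75.8 in old, 42.0 in ICM), and CDKN2B rose in both, by 1.40 and 0.55. CDKN2A codes for p16INK4A and p14ARF, which gene-level counts do not separate. Of 30 developmental regulators that PRC2 is known to silence, 15 had no read in any mRNA-seq library, 11 had a mean under 1 CPM and 4 had more, and 5 passed the filter. Among these GATA6 fell (log2 -0.71 in old, -1.61 in ICM), FOXF1 rose (0.18 and 0.58) and TBX5 rose in ICM (0.86). FOXA1 was at 0.321 CPM in young, 1.30 in old and 0.805 in ICM (10, 43 and 29 reads). It passed the filter through old, where it is highest, so its higher values in old and ICM are a description. FOXF1, TBX5 and GATA6 were already at 15.4 CPM or more in young cells. Of 16 germline genes that DNA methylation is known to silence, 6 had no read, 8 had a mean under 1 CPM, and SYCP3 and CTAG1B were tested and did not pass against young.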

How the data were processed

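Ribo-seq and mRNA-seq tables of 3 lysates each of young, old and ICM IMR90 were used, 18 in all, and groups and replicate numbers came from the sample titles. The deposited values are estimated counts of reads per gene symbol and transcript region, which the authors did not scale to depth; some are fractions of a read. The submitters' processing notes name STAR 2.6.0c, featureCounts and GRCh37, without saying which step made these tables. How reads with several matches were placed is not given in the sources used here.

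CDS counts were used for Ribo-seq and the sum of 5′ UTR, CDS and 3′ UTR for mRNA-seq, rounded to whole numbers. Each assay was fitted over its 9 libraries with edgeR 4.0.16 (glmQLFit, glmQLFTest, TMM, filterByExpr) in R 4.3.3, with two-sided Benjamini-Hochberg adjusted p over all genes tested and a threshold of 0.05. Translational efficiency was the interaction of assay and condition over 18 libraries with the lysate as a block, since the methods state that both libraries came from 1 lysate; the libraries' deviations correlated with r from -0.0795 to 0.136 over lysates, so the block rests on that statement. SE were derived from the F statistic of each fitted change. The steps were tested on simulated data with known changes. mRNA-seq CDS counts were divided by the coding length of the canonical transcript for levels between genes. Exact permutation tests (SciPy 1.17.1) were used for ratios and shares. Intervals for pooled reads are exact binomial and cover counting error only, and a count of 0 allows 3 counts over the group. No replicate pair held identical counts.

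The 10 genes and the gene lists were chosen with earlier results of these data known. From each list, the 3 largest called rises and falls of at least 5 CPM against young were named, and lists of up to 5 genes were named whole. Some genes that this rule names are not reported here. Alternatives were RLE scaling, DESeq2 1.42.0, other filters and thresholds, fits of 2 conditions, replicate blocks, CDS reads only and leaving out libraries.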

Additional observations from a re-analysis of the deposited data

Results flagged for a closer look

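The change of HELLS in footprints differed from its change in mRNA between ICM and young by 2.58 on the log2 scale (interaction of assay and condition in edgeR, SE 0.73, adjusted p = 0.0487). HELLS footprints rested on 5, 1 and 5 reads in the ICM libraries, and the value was 1.80 without ICM replicate 3 and 2.99 without ICM replicate 2. The gene passed the footprint filter through the young libraries, where it is high, so this value is a description. EED had reads in a column of the tables headed transcript, whose content is not explained in the sources used here and which no comparison used. Each of the 3 ICM mRNA-seq libraries held 2, the old libraries 0, 2 and 1, and the young libraries none. Groups of 3 libraries were not tested for a library that stands apart.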

How the results depend on the processing

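The called mRNA changes of the 10 genes kept their directions under every alternative run. Of the 10 genes, 8 to 9 were called in old and in ICM against young, and 7 in ICM against old, when 1 library was left out. The EZH2 to EZH1 log2 ratio then ran from -4.00 to -3.89 for ICM against young, -2.52 to -2.40 for old against young and -1.53 to -1.42 for ICM against old. For single genes, 469 mRNA values stayed on their side of the threshold and 8 lost the call, and 158 and 24 did so in footprints, where 1 gained the call (HELLS in ICM against young without ICM replicate 3). In footprints of old against young, where 4 genes were called, DESeq2 called 1, a mean of at least 50 counts left 2, fitting only the 2 conditions gave 7, and leaving out 1 library gave 1 (without old replicate 1) to 6. In ICM against young, with 3 called, the range was 2 to 5 (without ICM replicate 3). In ICM against old, with 2 called, DESeq2 and the 50-count filter each gave 1, the fit of 2 conditions 0, and leaving out 1 library 0 (without ICM replicate 1) to 2.

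The HELLS call in translational efficiency of ICM against young (1 gene) went to 0 with RLE scaling, DESeq2, no filter, the 50-count filter, the fit of 2 conditions and without the libraries of low CDS share (young replicate 1, old replicate 2), and to between 0 and 1 without 1 library. Only leaving out ICM replicate 2 kept the call among those. In ICM against old, 0 calls became 1 at a threshold of 0.15, and 0 to 1 without 1 library (ICM replicate 2), and in old against young the count was 0 throughout. The 3′ UTR share of ICM against old, -0.031 percentage points, ran from -0.603 to 0.657 and turned positive without ICM replicate 3 (0.369) and without old replicate 2 (0.657). Against young it ran from 1.26 to 2.06 in ICM and from 1.01 to 2.27 in old. The causes of these changes were not tested.

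Replicate numbers were shared by the conditions, but same-numbered libraries correlated in their deviations with r from -0.0555 to 0.103, so the numbers did not pair them. A replicate block gave 1 footprint call of the 10 genes in old against young, 1 in ICM against old and 2 in ICM against young, and left the mRNA counts at 9, 9 and 7. Without the replicate block, translational efficiency of ICM against old had 1 call. Over all genes, calls ranged over the alternatives from 5055 to 10345 (ICM against young), 4289 to 9792 (old against young) and 3870 to 9499 (ICM against old) in mRNA, from 619 to 1786, 516 to 3142 and 332 to 1020 in footprints, and from 33 to 313, 15 to 409 and 3 to 63 in translational efficiency. The EZH2 to EZH1 ratio of footprints gave no value, since EZH2 had no reads in ICM. The alternatives for list counts and for the 3′ UTR share were chosen after seeing the data.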
